A study of Mus musculus with 12 samples.

Results

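Genes for the voltage-gated sodium, calcium and potassium channels, with the other potassium channels and the accessory chains of each class, were followed in granule cell progenitors of the mouse cerebellum. The members are the genes whose platform symbol begins with Kcn, names a numbered sodium channel chain (Scn with a or b), or begins with Cacna1, Cacna2d, Cacnb or Cacng. The rule found 119 of the 18194 genes measured, through 252 probe sets, and each gene is represented by its brightest probe set over the 12 arrays. The rule reads the gene's name and, to choose among probe sets, the mean level. Among the symbols the rule caught, 3 (Kcnmb4os1, Kcnmb4os2 and Kcnq1ot1) are noncoding RNAs named after a neighbouring channel gene. They stayed in the counts and none of the 3 passed a test.

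Granule cell progenitors are the dividing neuronal precursors at the surface of the growing cerebellum. Wild type progenitors at postnatal day 8 were compared with progenitors of Atoh1-CreER/+; R26LSL-SmoM2-YFP mice of the same age. In these mice tamoxifen (200 ug per g at postnatal day 2) switches on SmoM2, a constantly active form of the hedgehog transducer Smoothened tagged with yellow fluorescent protein, in cells that express Cre from Atoh1, a gene of the progenitor lineage. The background strain of all mice was mixed, with C57BL/6 and Swiss Webster in it, and no source used here says whether tamoxifen was also given to the wild type. Cells of the hemispheres (lateral cerebellum) or of the vermis (midline) were isolated on Percoll gradients, and each replicate pooled 5 mice. The 4 groups have 3 arrays each, so that p-values measure the spread between these pools, in which single animals are not seen. In such bulk RNA, fewer cells of a type and less RNA per cell cannot be told apart. The design addresses what SmoM2 does to the progenitors and whether hemisphere and vermis differ.

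Ion channels set the resting potential and the excitability of a cell. Potassium channels return the membrane towards rest, sodium channels carry the rising phase of the action potential, and calcium channels turn depolarization into a calcium signal. Progenitors in the outer layer divide and do not yet fire like neurons, and granule cells acquire the currents of mature neurons as they leave the cycle, migrate inwards and form synapses. Pore-forming chains make the channel, and accessory chains change its gating, its number at the surface or its position in the cell.

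Values are deposited log2 expression values after robust multi-array averaging, a normalization that gives no detection call. The medians of the 12 arrays ran from 4.81 to 4.87. A group mean below 3.42, the highest of the arrays' lower quartiles, is called dim here: differences among such values are compressed. Of the 119 members 92 were above this level in every group, 7 in some groups and 20 in none. Differences are SmoM2 minus wild type on the log2 scale with the standard error (SE) of the fit, and a gene passed where its limma p, Benjamini-Hochberg adjusted over the 18194 genes, was under 0.05.

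The samples carried the signs of their labels. Of 9 measured genes on a hedgehog list 8 passed as higher in SmoM2 in the hemisphere and 7 in the vermis. The list holds targets such as Ptch1 (higher by 1.69 and 1.83) and also the progenitor gene Atoh1 (by 0.82 and 0.85) and Smo. Smo, whose active form the SmoM2 mice carry, is not a readout of a target. It read 0.46 higher in the hemisphere (passed) and 0.28 higher in the vermis (adjusted p = 0.0741). Markers of several other cell types moved with the genotype, while other lists gave few calls or calls both ways. Beside the counts that follow, 7.18% (hemisphere) and 9.46% (vermis) of all genes were lower and 7.62% and 7.56% higher. Of 16 markers of postmitotic granule neurons 9 were lower in hemisphere samples and 10 in vermis samples, and their summed linear level ran from 24000 to 26600 on the wild type arrays and from 14800 to 16100 on the SmoM2 arrays (Gabra6, a mature marker, was dim in every group). Of 11 oligodendrocyte genes 9 fell in each region, with sums of 10500 to 17900 in wild type and 4020 to 6450 in SmoM2, and none was dim. Of 9 microglial genes 6 and 5 fell, with sums of 1010 to 1170 and 425 to 751, and Itgam was dim. Of 4 unipolar brush cell genes 1 and 2 fell (Eomes by 1.95 and 2.15), with sums of 243 to 421 and 109 to 143, and Tbr1 and Lmx1a were dim. Of 5 genes of GABAergic interneurons 2 and 3 fell (Gad1 by 0.97 and 1.90) and 1 rose, with sums of 309 to 477 and 214 to 316. Of 11 endothelial and pericyte genes 1 and 5 fell, and their sums ran from 1590 to 2810 in wild type and from 1610 to 1930 in SmoM2 hemisphere, and from 2250 to 2750 in wild type vermis and from 1110 to 1630 in SmoM2 vermis. Of 11 astroglial genes 3 fell and 3 rose in each region, with sums of 11000 to 14000 and 7780 to 11900. Of 9 Purkinje cell genes 1 and 2 fell and 1 rose, with sums of 990 to 1500 and 800 to 1150, and Ppp1r17 was dim. Of 8 choroid plexus and ependymal genes 1 and 2 fell and 1 rose, and of 3 red blood cell genes 0 and 1 fell. One wild type hemisphere array (replicate 1) read 11.85 for Ttr, the marker of choroid plexus, against 4.90 and 5.17 on the others of its group. Leaving it out moved the hemisphere comparison described below for all genes more than for channel genes. Then 31 members passed (26.1%, against 23.5% of all genes), 26 of them shared with the 29 that passed with it (24.4%, against 14.8%), and 24 were lower (20.2%, against 11.3%). The part of these cell types in the results on channels was not tested.

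Promoters of members that moved in opposite directions are shown here because the results below set them against each other. Cacng5 and Kcnh5 rose with SmoM2, and Kcnj3 and Kcnq5 fell. For each gene the promoter shown is the first listed that holds a match to a motif picked for that gene. That each holds a match therefore follows from the choice. The stretches are the 250 bases before a RefSeq start site (GRCm38.p6), 5′ to 3′ on the gene's strand. They lie at chr11:107915056-107915305 (minus strand) for Cacng5, chr12:75177333-75177582 (minus) for Kcnh5, chr2:55435720-55435969 (plus) for Kcnj3 and chr1:21962651-21962900 (minus) for Kcnq5. Capitals mark matches, on either strand, to the CCAAT box (CCAAT, read as ATTGG on the other strand), to a form of E-box bound by ATOH1 (CAGATGG, or CCATCTG), to the TATA box (TATAAA) or to the GLI site of hedgehog targets (GACCACCCA).
Cacng5: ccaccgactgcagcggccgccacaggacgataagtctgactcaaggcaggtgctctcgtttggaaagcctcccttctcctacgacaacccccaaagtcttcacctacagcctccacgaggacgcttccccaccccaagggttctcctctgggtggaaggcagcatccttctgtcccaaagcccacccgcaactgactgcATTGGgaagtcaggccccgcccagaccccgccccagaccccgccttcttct
Kcnh5: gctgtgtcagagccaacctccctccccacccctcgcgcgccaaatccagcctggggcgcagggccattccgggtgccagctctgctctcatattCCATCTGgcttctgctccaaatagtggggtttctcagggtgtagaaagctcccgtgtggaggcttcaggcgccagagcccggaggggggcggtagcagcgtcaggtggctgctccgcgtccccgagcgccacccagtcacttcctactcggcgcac
Kcnj3: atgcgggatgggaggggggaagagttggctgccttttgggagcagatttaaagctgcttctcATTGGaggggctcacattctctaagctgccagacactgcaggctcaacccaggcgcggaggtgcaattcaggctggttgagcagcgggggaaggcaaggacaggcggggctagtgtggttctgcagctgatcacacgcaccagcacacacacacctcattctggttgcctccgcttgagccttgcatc
Kcnq5: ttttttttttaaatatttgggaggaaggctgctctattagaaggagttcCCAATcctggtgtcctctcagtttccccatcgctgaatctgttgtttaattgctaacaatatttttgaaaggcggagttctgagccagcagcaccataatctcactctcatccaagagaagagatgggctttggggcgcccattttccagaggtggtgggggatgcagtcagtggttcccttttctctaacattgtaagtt
The fifth stretch is the only GLI match in a member's promoter. It lies at chr2:52675990-52676018 (minus strand), 140 bases before a start site of Cacnb4, a gene that fell.
Cacnb4: gggtgctcggGACCACCCAgctcggggtg
The RefSeq table held 126 promoters of 91 of the 119 members. Kcna1 and Kcne1 were not matched. Among all 32851 promoters of the table, cut to the same length, 0.225% hold the GLI letters, 4.44% the E-box, 33.8% CCAAT and 12.4% TATAAA. Among the members' promoters the shares were 0.794%, 3.17%, 28.6% and 3.97%. A further motif searched, the GC box (GGGCGG), is in 32.7% of all promoters and 42.9% of those of members. No match shown overlaps another. None of the members that rose in both regions and had a promoter in the table (4 genes) held the GLI letters, and a match or its lack is a description of this window alone.

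Channel genes fell with SmoM2 more often than they rose. In the hemisphere 22 of the 119 members were lower in SmoM2 (18.5%, against 7.18% of all genes) and 7 were higher (5.88%, against 7.62%). In the vermis 26 were lower (21.8%, against 9.46%) and 8 were higher (6.72%, against 7.56%). The share called lower was thus above the background in each region and the share called higher near it or under it. The median difference of the members was -0.12 in the hemisphere and -0.19 in the vermis, beside -0.05 and -0.06 for all genes. With each array left out in turn, the hemisphere share lower ran from 12.6% to 20.2% of members and from 3.92% to 11.3% of all genes. For the vermis these shares were 15.1% to 24.4% and 5.27% to 11.7%. No enrichment test was run on this list, so the shares are descriptive. Groups that did not overlap were found for 36.1% of members in the hemisphere and 48.7% in the vermis, beside 31.7% and 39.8% of all genes.

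The calls were shared between the regions. Lower in both were 18 members (15.1%, against 4.7% of all genes), and higher in both were 5 (4.2%, against 5.27%). Another 17 passed in 1 region, 79 passed in neither, and no member passed in opposite directions, nor did any other of the 18194 genes. In at least 1 region 40 of the 119 members passed, beside 3976 of the 18194 genes. Passing members differed in size: 7 in each region had a difference of at least 1 on the log2 scale, from -1.64 and -1.79 for Kcna1 to 1.58 and 1.76 for Kcne1.

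**Figure D1:**
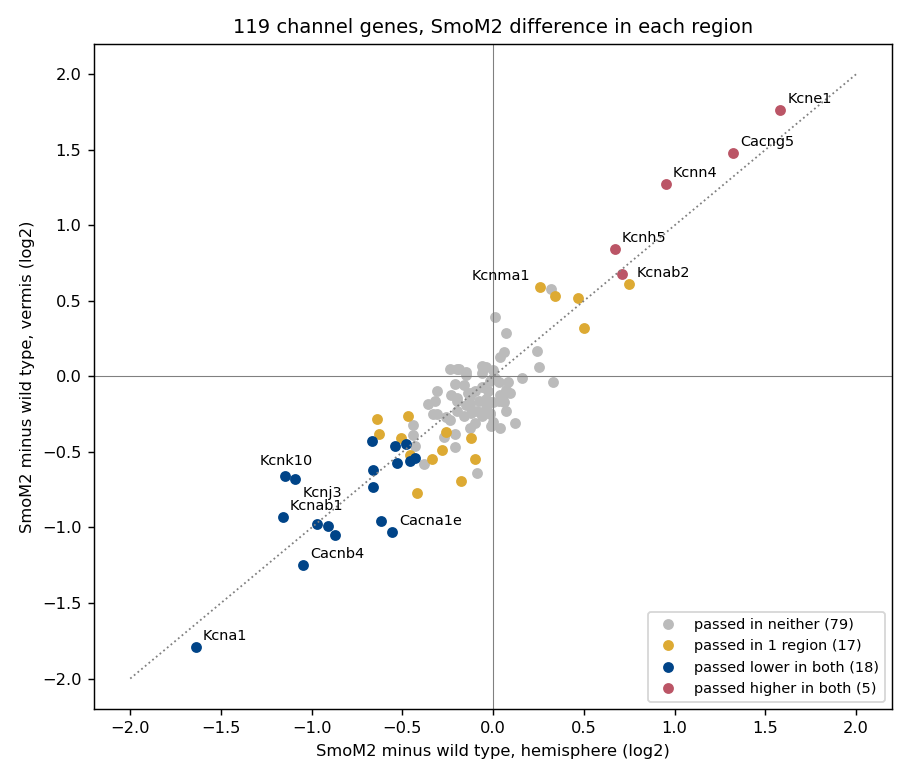
Each point is 1 of 119 channel genes, placed by its log2 difference between SmoM2 and wild type in the hemisphere (x axis) and in the vermis (y axis), and coloured by where it passed limma's test; the dotted line marks equal differences. Kcna1 lies at the lower left (-1.64 and -1.79), Kcne1 and Cacng5 at the upper right, and no gene that passed lies in the upper left or lower right field.

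**Figure D2:**
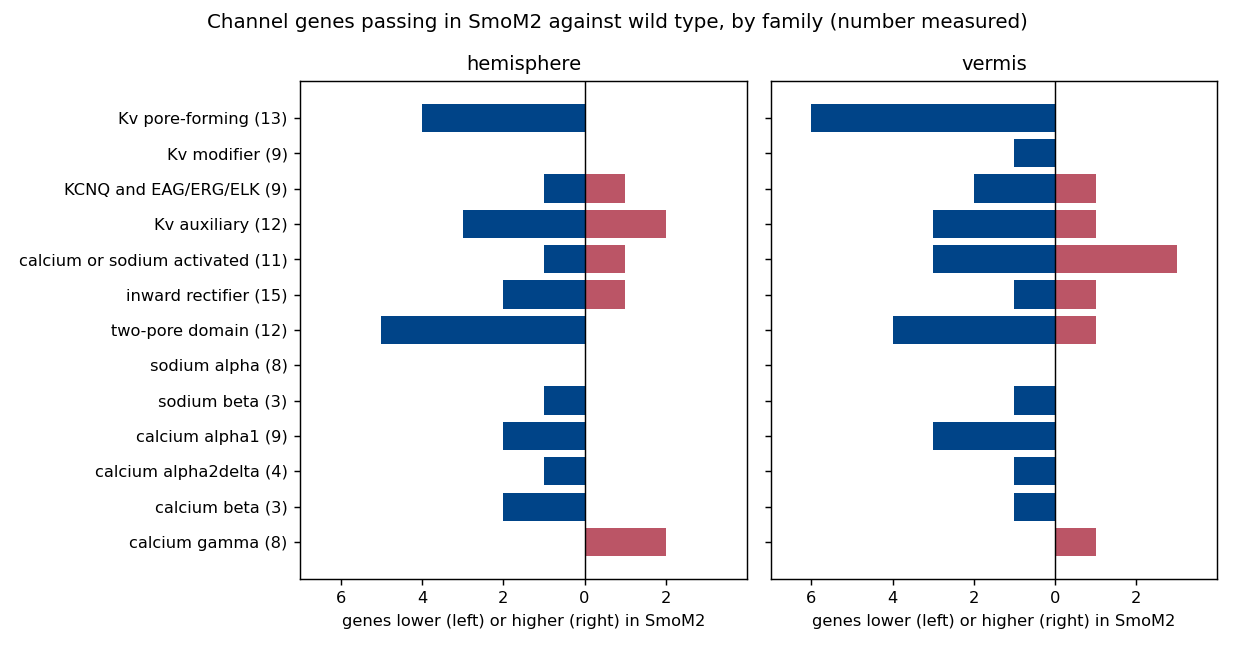
Bars count the channel genes of each family that passed as lower (blue, left) or higher (red, right) in SmoM2 in each region, with the number of genes measured in brackets; the 3 noncoding symbols are left out. The Kv pore-forming family had 4 and 6 lower and none higher, the sodium alpha family none in either direction. Beside these, 7.18% and 9.46% of all genes were lower and 7.62% and 7.56% higher.

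The Kv pore-forming genes, which encode the voltage-gated potassium channels proper, fell where they passed. Among 13 measured genes the calls were 4 lower in the hemisphere (all genes 7.18%), 6 lower in the vermis (9.46%) and none higher (7.62% and 7.56%). No family's count, here or below, was tested against these shares. Kcna1 and Kcna2 encode the low-threshold delayed rectifiers of axons. Kcna1 read 6.69, 7.28 and 7.83 in wild type hemisphere, 6.85, 7.37 and 7.69 in wild type vermis, 5.40, 6.02 and 5.46 in SmoM2 hemisphere, and 5.74, 5.64 and 5.14 in SmoM2 vermis. Every SmoM2 array was below every wild type array, and the wild type arrays spread over more than 1 log2 unit. Its level was 3.11-fold lower in the hemisphere (-1.64, SE 0.28, adjusted p = 0.0011) and 3.47-fold lower in the vermis (-1.79, SE 0.28, adjusted p = 0.000481). Its 3 other probe sets moved the same way, by -2.17, -1.36 and -0.10 in the hemisphere and by -2.41, -1.68 and -0.46 in the vermis. Kcna2 read 5.68, 5.97 and 5.39 in wild type hemisphere and 4.32, 5.24 and 4.86 in SmoM2 hemisphere. In the vermis it read 5.79, 6.02 and 5.87 in wild type and 4.92, 4.88 and 4.71 in SmoM2. The groups did not overlap, and the differences were -0.87 and -1.05 (adjusted p = 0.00824 and 0.00211). With the mean of all its probe sets Kcna2 read -0.42 and -0.63 (adjusted p = 0.0453 and 0.0053). Kcna5 and Kcna6, the neighbours of Kcna1 on its chromosome, read 0.04 and -0.14 (hemisphere) and 0.13 and -0.11 (vermis), short of the threshold. Kcna3, the neighbour of Kcna2, read -0.23 and -0.12 and did not pass.

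Kcnd1, Kcnd2 and Kcnd3 encode the Kv4 channels, which inactivate quickly and delay firing. Kcnd2 and Kcnd3 fell in both regions and Kcnd1 in the vermis, while Kcna4 (-0.08 and -0.16, dim) and Kcnc4 (-0.15 and -0.19), which also inactivate quickly, did not pass. Kcnd2, the Kv4 chain of granule cells, read 7.91, 7.64 and 7.72 in wild type hemisphere and 6.93, 7.24 and 7.09 in SmoM2 hemisphere, with vermis values of 7.30, 7.29 and 7.35 against 6.91, 7.03 and 6.70. It fell by 0.67 (SE 0.12, adjusted p = 0.00133) and, in the vermis, by 0.43, where the call was lost without wild type vermis replicate 2 or 3 or SmoM2 vermis replicate 1 or 3 (adjusted p from 0.0537 to 0.0857), and with the mean of its sets the hemisphere difference was -0.43. Kcnd3 fell by 0.54 and 0.46, and these calls were lost without any 1 of 3 hemisphere arrays (wild type replicate 3, SmoM2 replicates 1 and 3) or of 4 vermis arrays (wild type and SmoM2 replicates 1 and 3), with adjusted p up to 0.0798 and 0.131. With the mean of its 4 probe sets Kcnd3 read -0.14 in each region (adjusted p = 0.251 and 0.233). Kcnd1 (-0.55, adjusted p = 0.0487) and the fast delayed rectifier Kcnc2 (-0.77, adjusted p = 0.00319) passed in the vermis, at -0.10 and -0.42 in the hemisphere. The call of Kcnd1 was near the threshold and was not kept under every alternative. Kcnc1, which serves fast firing in mature cerebellum, read 0.04 and -0.34 and did not pass. Of the 9 modifier genes, silent chains that assemble with Kcnb channels, only Kcng4 passed, lower by 0.41 in the vermis near the dim level, and Kcns2 read 0.32 and 0.58 higher without passing (adjusted p = 0.341 and 0.0818).

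Accessory chains of Kv channels moved both ways. The 12 measured genes gave 3 lower and 2 higher calls in hemisphere samples (all genes 7.18% and 7.62%). In vermis samples they gave 3 lower and 1 higher call (all genes 9.46% and 7.56%). Kcnab1, the beta chain that assembles with Kcna channels and speeds their inactivation, read 7.27, 7.30 and 7.09 in wild type hemisphere and 5.76, 6.18 and 6.23 in SmoM2 hemisphere. Vermis values were 7.10, 7.21 and 7.03 in wild type and 6.14, 6.25 and 6.17 in SmoM2. Between the lowest wild type and the highest SmoM2 array there was a gap in each region, and the level was 2.24-fold and 1.90-fold lower (adjusted p = 2.04e-05 and 0.000144). Kcnip3, a calcium-binding partner of Kv4 channels also known as DREAM, read 7.48, 7.44 and 7.38 in wild type hemisphere and 6.94, 6.77 and 6.61 in SmoM2 hemisphere, with the vermis at 7.46, 7.31 and 7.30 against 6.68, 6.73 and 6.82. It fell by 0.66 and 0.62 (SE 0.10, adjusted p = 0.000688 and 0.0011). Kcne1l, a regulator of KCNQ channels also called Kcne5, fell by 0.48 and 0.45, calls that were lost without SmoM2 hemisphere replicate 1 or 3 (adjusted p = 0.0841 and 0.0649) and without wild type vermis replicate 1 or SmoM2 vermis replicate 1 or 2 (0.0639, 0.0506 and 0.0987). Dpp6, a partner of Kv4 channels outside the rule, fell by 0.56 and 0.80.

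By its brightest probe set Kcne1 had the largest rise of the 119 members in each region; with the mean of all sets of a gene it was higher by 1.12 and 1.18 and Kcnma1, described below, was higher by more. It encodes minK, the small chain that slows the KCNQ1 channel of heart and inner ear. Kcne1 read 3.75, 3.66 and 4.42 in wild type hemisphere and 5.27, 5.58 and 5.73 in SmoM2 hemisphere, and 3.47, 3.67 and 3.90 against 5.26, 5.83 and 5.23 in the vermis. All SmoM2 arrays were above all wild type arrays, by 2.99-fold (1.58, SE 0.21, adjusted p = 0.000153) and 3.38-fold (1.76, SE 0.21, adjusted p = 5.53e-05). A further probe set read 0.65 and 0.60 higher (adjusted p over all probe sets 0.0685 and 0.0912). Kcnq1, the pore with which minK is known to work, read -0.44 and -0.39 (adjusted p = 0.0787 and 0.105). Kcnab2, another Kv beta chain, read 5.13, 4.55 and 5.22 in wild type hemisphere and 5.92, 6.00 and 5.24 in SmoM2 hemisphere. The lowest SmoM2 value lies just above the highest wild type value. It passed at 0.75 higher (adjusted p = 0.0411), a call lost without wild type hemisphere replicate 2, wild type vermis replicate 2, or replicate 1 or 2 of either SmoM2 group (adjusted p from 0.0502 to 0.165), and in the vermis it read 0.61 higher (adjusted p = 0.0815). With the mean of its sets Kcnab2 read 0.43 in the hemisphere.

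**Figure D3:**
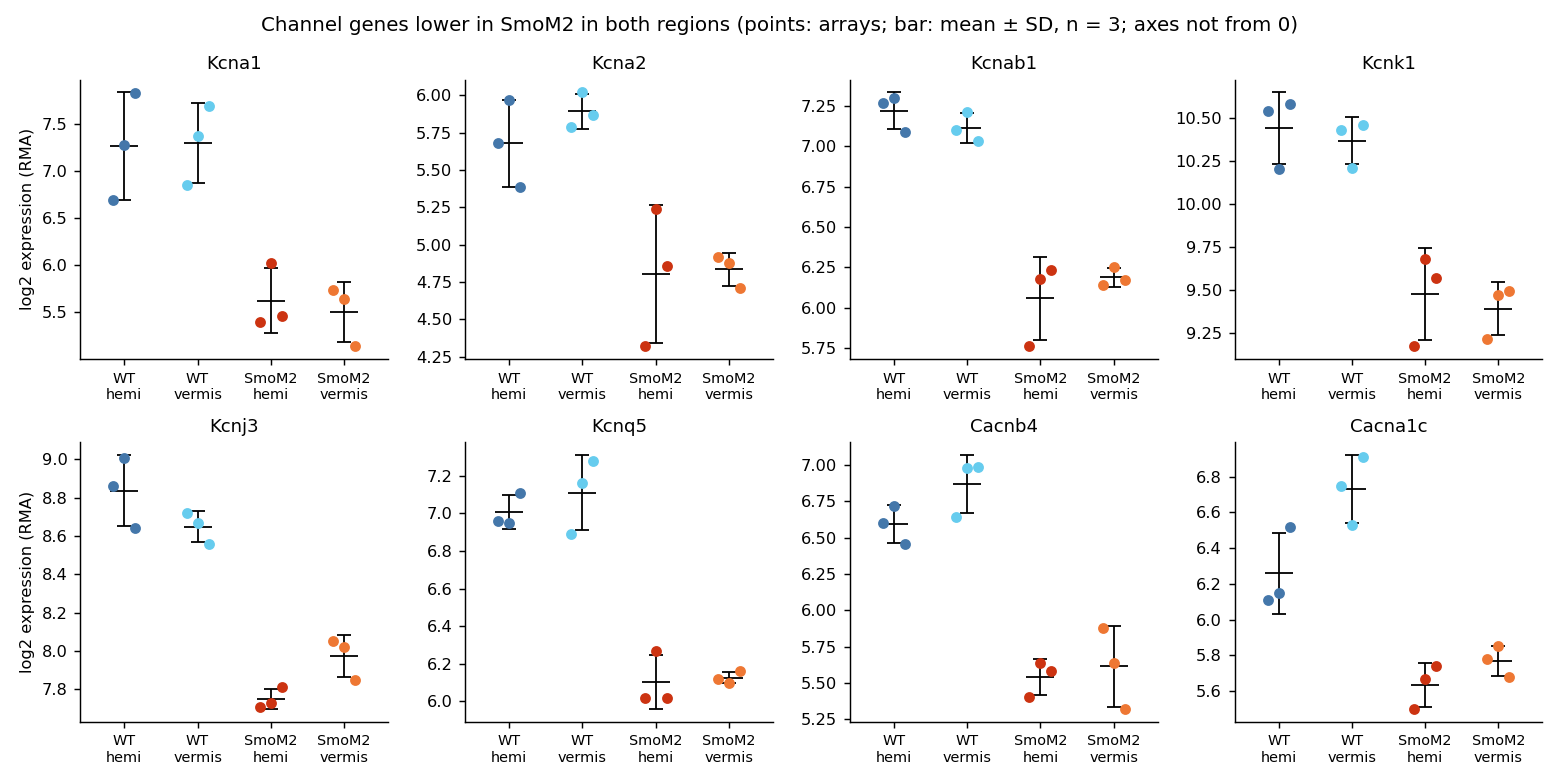
Log2 expression of 8 channel genes that were lower in SmoM2 in both regions, by array (points) with the mean and SD of the 3 arrays of each group. In each panel every SmoM2 array lies under every wild type array of its region; Kcna1 falls from means of 7.27 and 7.30 to 5.63 and 5.51.

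KCNQ and EAG-type genes, whose channels open slowly near rest, gave 3 members among 9 passing in at least 1 region (all genes 3976 of 18194). Kcnq5, an M-current chain, read 6.96, 6.95 and 7.11 in wild type hemisphere and 6.02, 6.27 and 6.02 in SmoM2 hemisphere, and 6.89, 7.16 and 7.28 against 6.12, 6.10 and 6.16 in the vermis. Its groups lay well apart, with differences of -0.91 and -0.99 (SE 0.12, adjusted p = 0.00011 and 4.8e-05), and with the mean of its sets it read -0.56 and -0.52. Kcnq3, the partner chain of the M-current, was not called at -0.33 and -0.25 (adjusted p = 0.0632 and 0.141). Kcnh1, encoding EAG1, fell by 0.52 in the vermis (adjusted p = 0.0411, not kept under every alternative) and read -0.46 in the hemisphere. Its close relative Kcnh5, encoding EAG2, a channel known from work on medulloblastoma growth, went the other way. Kcnh5 read 2.40, 2.39 and 2.48 in wild type hemisphere and 2.87, 3.04 and 3.37 in SmoM2 hemisphere, and 2.61, 2.11 and 2.24 against 2.96, 3.09 and 3.43 in the vermis. Every SmoM2 array was above every wild type array, by 0.67 and 0.84 (adjusted p = 0.0111 and 0.0024), but all 4 group means are dim. Without SmoM2 hemisphere replicate 3 the hemisphere call was lost (adjusted p = 0.0595).

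Channels opened by internal calcium or sodium gave calls in both directions. In the hemisphere 1 was lower and 1 higher of 11 (all genes 7.18% and 7.62%). In the vermis there were 3 of each (all genes 9.46% and 7.56%). Kcnn4, the intermediate-conductance calcium-activated channel known from blood cells and dividing cells, rose. It read 5.01, 4.87 and 5.05 in wild type hemisphere and 5.73, 6.00 and 6.06 in SmoM2 hemisphere, and 4.23, 5.26 and 4.48 against 5.69, 6.16 and 5.93 in the vermis. The groups did not overlap, although 1 wild type vermis array stood near the SmoM2 values, and the level was 1.94-fold and 2.42-fold higher (SE 0.21 on the log2 scale, adjusted p = 0.00698 and 0.000806). The small-conductance channel Kcnn1 fell by 0.69 in the vermis (adjusted p = 0.00146) and read -0.18 in the hemisphere. The sodium-activated Kcnt2 rose by 0.52 in the vermis and read 0.47 in the hemisphere (adjusted p = 0.0534). The vermis call of Kcnt2 was lost without any 1 of the wild type vermis arrays or SmoM2 vermis replicate 1 or 2 (adjusted p from 0.0539 to 0.147).

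Kcnma1, the pore of the large-conductance BK channel opened jointly by voltage and calcium, depended on the probe set read. The brightest set (1425987_a_at) read 5.61, 5.60 and 5.62 in wild type hemisphere and 6.15, 5.69 and 5.78 in SmoM2 hemisphere, a difference of 0.26 that did not pass (adjusted p = 0.174). In the vermis it read 5.22, 5.26 and 5.33 against 6.04, 5.72 and 5.83, a rise of 0.59 (adjusted p = 0.00485). The 4 other sets of Kcnma1, looked at after their values were seen, all rose, by 0.85 to 2.41 in the hemisphere and by 0.86 to 2.88 in the vermis. The set 1428948_at read 3.00, 2.60 and 2.72 in wild type hemisphere and 5.21, 5.32 and 5.01 in SmoM2 hemisphere. In the vermis the same set read 2.46, 2.95 and 2.74 against 5.69, 5.68 and 5.41. Its SmoM2 arrays thus lie more than 2 log2 units above its wild type arrays, which are dim (adjusted p over all probe sets 2.06e-07 and 4.58e-08). With the mean of its 5 sets Kcnma1 was higher by 1.19 and 1.43. Beta chains of BK channels went down or did not pass: Kcnmb2, which makes BK inactivate, fell by 0.53 and 0.57, Kcnmb1 fell by 0.37 in the vermis at a dim level, and Kcnmb4, the neuronal beta chain, read -0.16 and -0.06.

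**Figure D4:**
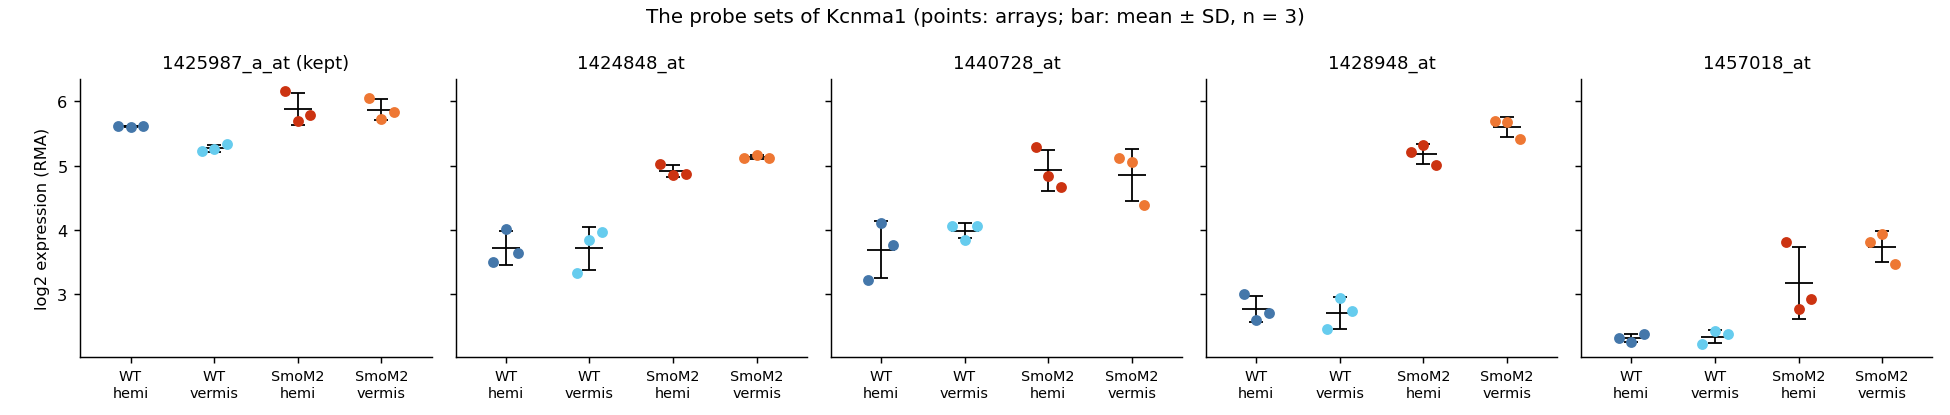
Log2 expression of the 5 probe sets of Kcnma1 by array (points), with the mean and SD of 3 arrays per group; the first panel is the brightest set, which stands for the gene elsewhere. The SmoM2 arrays stand above the wild type arrays in each panel, by 2.41 and 2.88 in the set 1428948_at and by 0.26 and 0.59 in the brightest set.

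Inward rectifiers, which hold the membrane near rest, had 3 members among 15 passing in at least 1 region. This is near the share of all genes, 3976 of 18194. Kcnj3 encodes GIRK1, a chain of the channel that G-protein-coupled receptors open. It read 8.86, 9.01 and 8.64 in wild type hemisphere and 7.71, 7.73 and 7.81 in SmoM2 hemisphere, and 8.72, 8.67 and 8.56 against 8.05, 8.02 and 7.85 in the vermis. The groups were far apart in both regions, at -1.09 (SE 0.11, adjusted p = 1.16e-05) and -0.68 (SE 0.11, adjusted p = 0.000743). Of its 3 other sets 1 passed as lower in the hemisphere, the others lay between -0.56 and 0.24, and with the mean of all 4 sets the differences were -0.41 (adjusted p = 0.0433) and -0.31, which did not pass (adjusted p = 0.104). Kcnj6, the GIRK2 chain that is mutated in the weaver mouse and known for its role in granule cells, read -0.36 and -0.18 (adjusted p = 0.0769 and 0.355), and -0.40 and -0.32 with the mean of its sets (adjusted p = 0.00376 and 0.0147). Kcnj11, the pore of the ATP-sensitive channel, read 7.08, 7.29 and 7.48 in wild type hemisphere and 6.54, 6.96 and 6.44 in SmoM2 hemisphere, 0.64 lower (adjusted p = 0.0116, lost without SmoM2 hemisphere replicate 1 or 3 at 0.0537 and 0.0608). In the vermis it read -0.28 and did not pass. Abcc8, the sulphonylurea receptor that assembles with Kcnj11, was lower in both regions (-0.74 and -1.06, adjusted p = 0.0182 and 0.00169). Kcnj12, a strong rectifier, rose: it read 4.28, 3.89 and 4.26 against 4.68, 5.08 and 4.80 in the hemisphere and 3.89, 4.16 and 4.20 against 4.73, 4.95 and 4.59 in the vermis. No SmoM2 array of Kcnj12 fell among the wild type arrays (0.71 and 0.68, adjusted p = 0.00481 and 0.0064). Kcnj13, a channel of choroid plexus, was highest on the wild type hemisphere array with high Ttr (4.85, against 4.43 and 4.27) and did not pass (-0.44 and -0.32).

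The leak channels of the tandem pore family, which carry background potassium current, have 12 measured genes. In the hemisphere 5 were lower and none higher (all genes 7.18% and 7.62%). In the vermis 4 were lower and 1 higher (all genes 9.46% and 7.56%). Kcnk1, encoding TWIK, read 10.54, 10.20 and 10.58 in wild type hemisphere and 9.17, 9.68 and 9.57 in SmoM2 hemisphere, and 10.43, 10.21 and 10.46 against 9.21, 9.47 and 9.49 in the vermis. The groups were separate and the level was 1.96-fold and 1.97-fold lower (adjusted p = 0.000549 and 0.000452). The mechanically gated TREK channels Kcnk2 and Kcnk10 fell as well. Kcnk2 read 7.30, 6.98 and 7.24 against 6.23, 6.79 and 6.52 in the hemisphere and 7.50, 7.38 and 7.48 against 6.67, 6.88 and 6.62 in the vermis (-0.66 and -0.73, adjusted p = 0.00566 and 0.00259). Kcnk10 read 5.63, 5.30 and 5.08 against 4.19, 4.16 and 4.21 in the hemisphere (-1.15, adjusted p = 0.000555) and 5.16, 4.77 and 4.69 against 4.55, 4.23 and 3.87 in the vermis (-0.66, adjusted p = 0.0215). The vermis call of Kcnk10 was lost without wild type vermis replicate 1 or SmoM2 vermis replicate 2 or 3 (adjusted p = 0.0691, 0.0609 and 0.0871). With the mean of its sets Kcnk10 read -0.64 and -0.40 (adjusted p = 0.000798 and 0.0168). Kcnk6 and Kcnk7 fell in the hemisphere (by 0.47 and 0.51) and Kcnk16 in the vermis (by 0.49). Kcnk5, a pH-sensitive channel and the genomic neighbour of Kcnk16, rose by 0.53 in the vermis, but this call was lost without any 1 of the SmoM2 vermis arrays, SmoM2 hemisphere replicate 3 or wild type vermis replicate 2 or 3 (adjusted p from 0.0503 to 0.145), and with the mean of its probe sets it read 0.12 (adjusted p = 0.446). Kcnk3, an acid-sensitive leak channel of granule cells, read 0.07 and -0.11 and did not pass.

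Sodium channel alpha chains, the pores of the action potential, gave no passing member among 8 in either region. Of all genes, 14.8% passed for hemisphere samples and 17% for vermis samples. A family of 8 is too small for the absence of calls to set it apart from these shares. Its median differences were -0.09 (hemisphere) and -0.17 (vermis), beside -0.12 and -0.19 for all members. Of the 8 genes, 3 (hemisphere) and 1 (vermis) had differences above 0. Scn8a, the chain of resurgent and persistent current in cerebellar neurons, read 7.96, 8.23 and 8.05 against 8.34, 8.03 and 8.09 in the hemisphere and 8.38, 8.15 and 8.33 against 8.25, 8.22 and 8.25 in the vermis. Its groups overlapped, with differences of 0.08 and -0.04 (SE 0.11). Scn2a, the early chain of the axon initial segment, read 6.99, 6.47 and 5.86 against 5.90, 6.47 and 5.81 in the hemisphere and 6.80, 6.53 and 6.40 against 6.05, 6.22 and 5.72 in the vermis. Its vermis groups did not overlap but its difference did not pass (-0.58, SE 0.24, adjusted p = 0.116), and its wild type hemisphere arrays spread over more than 1 log2 unit. The peripheral chains Scn9a and Scn10a were dim in all groups. Of the 3 beta chains measured only Scn3b fell, by 0.43 and 0.54 (adjusted p = 0.0393 and 0.0122). Its hemisphere call was lost without wild type hemisphere replicate 2 or 3, SmoM2 hemisphere replicate 1 or 3 or SmoM2 vermis replicate 2 (adjusted p from 0.0532 to 0.148), and its vermis call without wild type or SmoM2 vermis replicate 3 (0.0502 and 0.0554). With the mean of its sets Scn3b read -0.28 in the hemisphere (adjusted p = 0.0938).

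Calcium channel pores fell where they passed, with 2 of 9 lower in the hemisphere (all genes 7.18%) and 3 in the vermis (all genes 9.46%). Cacna1c and Cacna1d encode the L-type channels that couple depolarization to gene expression. Cacna1c read 6.11, 6.15 and 6.52 in wild type hemisphere and 5.50, 5.67 and 5.74 in SmoM2 hemisphere, and 6.75, 6.53 and 6.91 against 5.78, 5.85 and 5.68 in the vermis. The groups did not overlap (-0.62 and -0.96, adjusted p = 0.00559 and 0.00018). Cacna1d fell by 0.55 in the vermis and read -0.34 in the hemisphere. Cacna1e, the R-type pore, read 7.30, 7.21 and 7.61 in wild type hemisphere and 6.85, 6.84 and 6.74 in SmoM2 hemisphere, and 8.14, 7.96 and 8.31 against 7.28, 7.03 and 7.01 in the vermis. It fell by 0.56 and 1.03 (adjusted p = 0.00871 and 7.42e-05), and with the mean of both its sets, the other of which is dim, the differences were -0.30 (adjusted p = 0.0895) and -0.58 (adjusted p = 0.00312). Cacna1a and Cacna1b, the P/Q-type and N-type pores of transmitter release, read -0.20 and -0.14, and -0.24 and -0.29, and did not pass. Cacna1b is the channel known for guiding granule cell migration, and its vermis adjusted p was 0.0789. The low-threshold T-type Cacna1g read 0.01 and -0.01 (SE 0.12).

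Among the accessory chains of calcium channels Cacnb4 fell and Cacng5 rose in both regions. Of the 3 beta genes 2 and 1 passed as lower, with Cacnb2 at 0.07 and 0.29. Of the 8 gamma genes 2 and 1 passed as higher (all genes 7.62% and 7.56%), with medians of -0.01 and -0.08. Cacnb4, the beta chain that carries pores to the surface and is mutated in the lethargic mouse, read 6.60, 6.72 and 6.46 in wild type hemisphere and 5.40, 5.64 and 5.58 in SmoM2 hemisphere, and 6.64, 6.98 and 6.99 against 5.88, 5.64 and 5.32 in the vermis. It was 2.07-fold and 2.39-fold lower with no overlap (adjusted p = 0.000222 and 4.13e-05). Cacnb1 fell by 0.63 in the hemisphere and read -0.38 in the vermis. Cacna2d3 fell by 0.46 and 0.56, whereas Cacna2d1, the main alpha2delta chain, read 0.16 and -0.01 and did not pass; with the mean of its sets it read 0.72 in the hemisphere (adjusted p = 0.00485). The gamma family includes chains that escort AMPA receptors. None of its 8 members passed as lower, beside 7.18% of all genes in the hemisphere and 9.46% in the vermis. Of the 8, 4 had differences above 0 in each region, and 2 were dim in every group. Cacng5, an AMPA receptor auxiliary chain, read 6.03, 5.35 and 5.83 in wild type hemisphere and 6.89, 7.15 and 7.14 in SmoM2 hemisphere, and 5.98, 5.30 and 6.01 against 7.36, 7.14 and 7.24 in the vermis. The SmoM2 arrays stood 2.50-fold and 2.79-fold higher, without overlap (1.32 and 1.48, SE 0.19, adjusted p = 0.000342 and 0.000114). Its other set, near the dim level, read -0.25 and 0.07, and with the mean of both Cacng5 was higher by 0.54 and 0.78 (adjusted p = 0.00351 and 0.000182). Cacng4 and Cacng1, its neighbours in the genome, read -0.02 and 0.06 in the hemisphere and -0.17 in the vermis each, and did not pass. Cacng2 is stargazin, needed for AMPA receptors at the surface of granule cells. It read 8.39, 8.32 and 8.78 against 8.99, 9.18 and 8.83 in the hemisphere and 8.76, 8.65 and 9.03 against 9.09, 9.19 and 9.10 in the vermis. It passed in the hemisphere (0.50, adjusted p = 0.0274), a call lost without wild type or SmoM2 hemisphere replicate 1 or 2 (adjusted p from 0.0514 to 0.109), and read 0.32 in the vermis (adjusted p = 0.133). Cacng2 read 0.38 in the vermis with the mean of its sets (adjusted p = 0.0361).

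**Figure D5:**
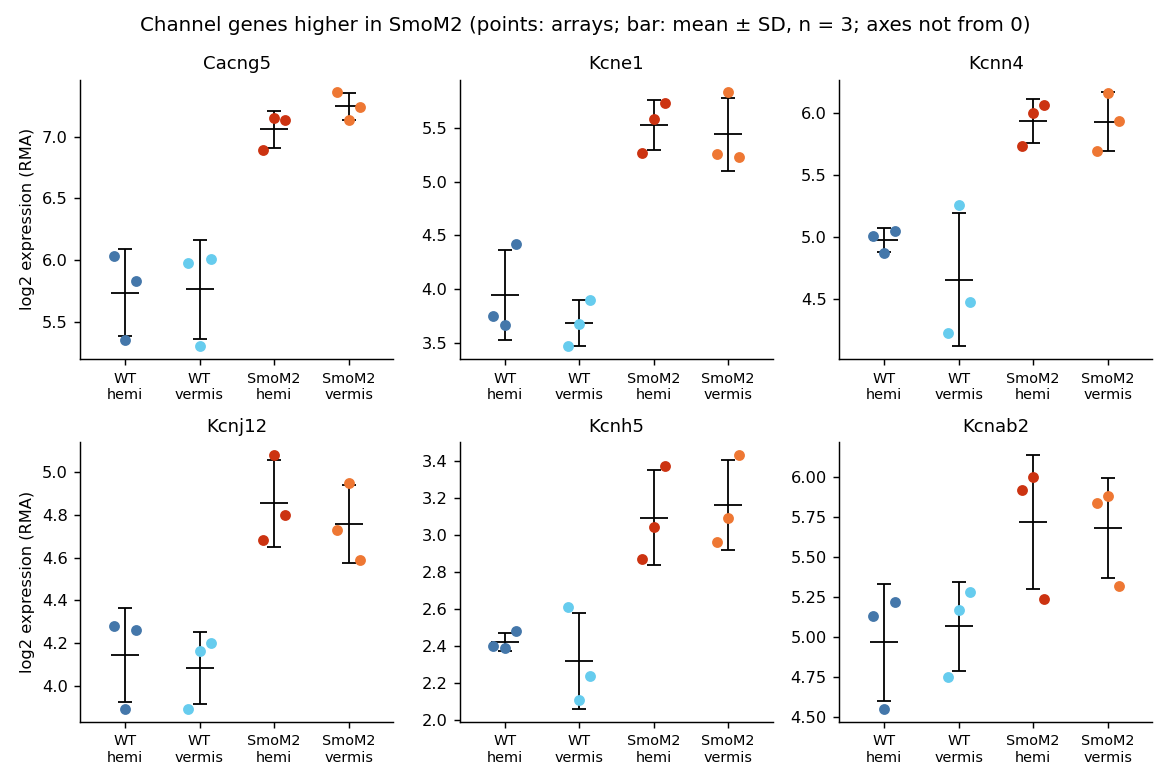
Log2 expression of 6 channel genes that were higher in SmoM2, by array (points) with the mean and SD of the 3 arrays of each group. Cacng5, Kcne1, Kcnn4, Kcnj12 and Kcnh5 passed in both regions and Kcnab2 in the hemisphere; Kcnh5 stays below 3.5 on every array.

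Most other probe sets of the passing members moved with the set that was kept. In the hemisphere 22 of the 29 passing members had further sets, and 33 of those 37 sets differed in the same direction, 10 of them passing over all probe sets. In the vermis 38 of 41 further sets of 25 members had the same direction and 12 passed. No further set passed in the opposite direction.

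Genes that work with these channels, listed apart from the rule, moved both ways, with more lower than higher calls. Of 38 measured partners (of 45 listed), hemisphere samples gave 10 lower and 4 higher calls (all genes 7.18% and 7.62%). Vermis samples gave 9 lower and 5 higher (all genes 9.46% and 7.56%). The medians were -0.13 and -0.16, and the list was not tested against these shares. Nalcn, the sodium leak channel that depolarizes resting neurons, rose further than the brightest set of any member. It read 6.85, 6.48 and 5.89 in wild type hemisphere and 9.40, 9.32 and 9.43 in SmoM2 hemisphere, and 6.55, 6.72 and 6.37 against 9.37, 9.39 and 9.40 in the vermis. The rise was 2.98 and 2.84 (SE 0.18, adjusted p = 8.94e-08 and 1.15e-07), while its partner Unc80 read -0.16 and -0.11 and did not pass. The endolysosomal channel Tpcn1 rose by 1.29 and 0.95, and Fgf14, a binding partner of sodium channels, by 0.64 and 1.07 from a dim wild type level. Ryr2, the calcium release channel of internal stores, fell by 1.13 and 1.64, and Fgf11, a relative of Fgf14, by 0.78 and 1.13. Of the scaffolds, Ank3, which gathers sodium and KCNQ channels at the axon initial segment, fell by 0.44 and 0.55 and Sptbn4 by 0.64 and 0.65, whereas Ank2 rose by 0.44 and 0.57. Hcn2 and Hcn3, the measured pacemaker channels, did not pass either (Hcn2 at -0.12 and -0.17).

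The comparison of hemisphere with vermis gave few calls among channel genes. In wild type 1 member passed (0.84%, against 0.187% of all genes): Cacna1e, lower in the hemisphere by 0.76 (SE 0.13, adjusted p = 0.0353), with hemisphere arrays between 7.21 and 7.61 and vermis arrays between 7.96 and 8.31. This call was kept without wild type hemisphere replicate 3 or SmoM2 vermis replicate 3 and was lost without any 1 of the other 10 arrays, with adjusted p from 0.0514 to 0.192. With the pool of mice as a random block 198 genes passed in place of 34 (1.09%), and 4 members (3.36%): Cacna1e, Cacna1c (-0.47, adjusted p = 0.0446) and Scn7a (-0.77, adjusted p = 0.0155) lower in the hemisphere and Kcnd2 higher (0.44, adjusted p = 0.0388). Without the block the adjusted p of Cacna1c, Scn7a and Kcnd2 were 0.271, 0.11 and 0.209. Scn7a, the sodium-sensing chain found in glia, read 3.14, 2.84 and 2.94 on hemisphere arrays against 3.61, 3.86 and 3.75 on vermis arrays, so that the hemisphere values are dim. In SmoM2 no member passed limma's test between the regions (0.0605% of all genes did). At an unadjusted p under 0.05 there were 7 (5.88%, against 3.63% of all genes), and the differences ran from -0.47 (Scn7a) to 0.41 (Kcnip1, adjusted p = 0.742).

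The SmoM2 difference was not shown to vary between the regions for any member. In limma's test of the difference of differences 0 of the 119 members and 0% of all genes passed, and 4 members were under an unadjusted p of 0.05 (3.36%, against 3.1% of all genes). The counts under all alternatives run were also 0 for this test and for the regions in SmoM2. The largest values were -0.49 for Kcnk10 and 0.55 for Kcnj8, with a median SE of 0.20, so that the 17 members passing in 1 region only cannot be called particular to it. Kcnn1, Kcnj3 and Cacna1e had the smallest p in this test, all with an adjusted p of 1.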

How the data were processed

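Total RNA of 12 pooled samples (4 groups of 3) was hybridised to Affymetrix whole-genome mouse arrays, 1 colour, per the labels. The deposited values are log2 expression values made by the authors with Partek and RMA, per the submitters' processing notes, without versions. Symbols came from the platform annotation: 34958 of 45101 probe sets have 1 symbol, 932 several and 9211 none, and sets with several named no gene. Each gene kept its brightest set. limma 3.58.1 in R 4.3.3 (lmFit, eBayes) was fitted to 4 group means over 18194 genes, without a block. The script was tested on simulated data. The number of arrays limits the precision.

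The members and lists were chosen with earlier results of these data known. Named genes were up to 12 passing members each way with the largest difference per SmoM2 comparison, members passing a region comparison or else the 3 smallest p, the brightest of each family, and a list of cerebellar channels, of which Kcnb2, Kcnk9 and Scn2a1 were not matched by symbol (Scn2a was). Other passing members are named with their family's count after their values were seen.

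Same-numbered hemisphere and vermis arrays of 1 genotype deviated together in wild type (correlations 0.34 to 0.53) and less so in SmoM2 (0.14 to 0.27). Same-numbered arrays of different genotypes, which cannot share mice, ran from -0.22 to 0.28, so the SmoM2 values do not stand apart from them. For the pool blocks the numbers were taken to pair regions within a genotype, which the labels do not state. Alternatives were the replicate number as a block, the pool as a random or, added after seeing the data, a fixed block, 2 further normalizations, probe set rules, a filter on dim genes, other moderation, array weights, fits on the compared groups and each array left out.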

Additional observations from a re-analysis of the deposited data

How the results depend on the processing

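Counts of passing channel genes were recomputed under each alternative. In the hemisphere comparison of SmoM2 with wild type the count of 29 fell to 18 with only the brighter genes tested. There 2247 of 9097 genes passed, in place of 2694 of 18194. Fewer members could enter, and how many did is not given, so their share cannot be set beside it. The count fell to 19 without variance moderation (all genes 1954 in place of 2694). It ran from 21 to 31 with each array left out, while all passing genes ran from 1633 to 4276. Without wild type hemisphere replicate 1 the share of members, 26.1%, was close to the 23.5% of all genes. In the vermis the count of 34 fell to 16 with only the brighter genes tested, where 2196 of 9097 genes passed in place of 3096 of 18194. It ran from 25 to 37 with each array left out (all genes from 1756 to 3827). With the replicate number as a block, which the labels share between groups, 33 and 38 members passed in the hemisphere and vermis (all genes 3253 and 3745). With this block 1 member passed between the regions in wild type, 0 between them in SmoM2 and 0 for the difference of differences. The single call between regions in wild type became 0 with the mean of all probe sets, with all probe sets tested, without moderation, with array weights and with only the groups compared, became 4 with a random block for the pool (198 of all genes in place of 34), and ran from 0 to 2 with each array left out; with the pool as a fixed block it was 1. Across named genes and alternatives no difference that passed changed its sign, 4818 values kept their side of the threshold, 92 lost a call and 31 gained one. The cause was not tested. These values cover all 5 comparisons, and most belong to differences that had not passed and so had no call to lose. The 4818 is therefore no measure of how stable the calls are. In all alternatives that tested them 14 of 29 hemisphere calls and 19 of 34 vermis calls were kept. Values below the arrays' lower quartile, as for Kcnh5, Kcng4 and Kcnmb1, carry compressed differences, and 3 arrays a group limit every call.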
